A study of Mus musculus with 50 samples.

Results

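The genes of cell division and DNA replication were followed through the RNA-seq libraries as a fixed set of 43 genes, of 24984 genes counted in all. They were chosen by symbol from the known machinery of the cell cycle, with no threshold on their values. By the phase in which their products act, 17 of the members belong to the G1/S transition and DNA replication, and 26 to G2 and mitosis. All 43 were found in the count files.

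Cells copy their genome once per cycle. Origins are licensed in G1 when CDC6 loads the MCM2 to MCM7 helicase onto DNA, the helicase is switched on with CDC45 and GINS at the start of S phase, and the PCNA clamp then holds the polymerases on the template while ribonucleotide reductase and thymidylate synthase supply the nucleotides. Cyclin B with CDK1 starts mitosis, the Aurora and Polo kinases build the spindle, the checkpoint kinases hold sister chromatids together until every kinetochore is attached, and CDC20 and UBE2C then let the anaphase-promoting complex destroy cyclin B. Transcripts of this machinery are made in waves and most are low in resting cells. Cells of adult kidney and liver rarely divide.

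The study measured gene expression by RNA-seq and open chromatin by ATAC-seq, an assay in which the Tn5 transposase cuts accessible DNA, to find what aging changes in both organs. All animals were C57BL/6 mice, and the untreated ones were female per the study's methods; the sex of the DMSO and 3C mice is not given in the sources used here. Untreated young mice were 2.5 months old and untreated old mice 23 to 25 months old, and kidney and liver of both ages gave 4 RNA-seq and 3 ATAC-seq libraries per group. In a further set, mice of 20 to 21 months were given the solvent DMSO or a treatment labelled 3C, and each organ gave 4 RNA-seq libraries per group; skin fibroblasts labelled P9, given DMSO or 3C, gave 3 per group. Neither the labels nor the methods say what 3C is, at what dose it was given or for how long, and P9 is not explained either. The 38 RNA-seq libraries fell into 10 groups. Nothing in the labels says that the libraries of a group came from separate animals or cultures, so p-values measure the spread between these libraries, which may be technical.

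The promoters of the members differed by phase in the short words they held. RefSeq windows of 300 bases, 250 before and 50 after a transcription start (GRCm38.p6), were at hand for 35 of the 43 members, as 38 windows, and not for Ccne2, Ccna2, Mcm4, Gins2, Foxm1, Aurkb, Kif20a and Tpx2. The windows were searched on both strands for the cell cycle genes homology region (CHR; TTTGAA or TTCGAA), the element through which the DREAM and MuvB complexes act on mitotic genes, for the CCAAT box (CCAAT), and for E2F words (TTTCCCGC, TTTGGCGC, TTTCGCGC or TTTGCCGC, which can overlap each other), which bind the E2F factors of the G1/S transition. A CHR word stood in 17 of 22 windows of G2/M members (77.3%), in 3 of 16 windows of G1/S members (18.8%) and in 19.2% of all 32851 promoter windows. An E2F word stood in 6 of 16 G1/S windows (37.5%), in 1 of 22 G2/M windows (4.55%) and in 2.26% of all windows. CCAAT was found in 31 of the 38 member windows (81.6%) against 37.4% of all windows, and at least 2 copies in 20 (52.6%) against 11.7%. A match describes the letters and is not evidence of binding.

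The 160 bases before the start used for the window are shown for 3 members that fell in fibroblasts with 3C (Top2a, Cdc20 and Rrm2) and for 3 that rose in old kidney (Ube2c, Mcm5 and Mcm6), each 5′ to 3′ on the strand of its gene, with CHR, CCAAT and E2F words in capitals. The annotated genes of Top2a and Mcm5 begin further upstream than that start, so their stretches reach into the gene. The sequence of Top2a (GRCm38.p6, chr11:99024190-99024349, minus strand) holds 3 CHR and 4 CCAAT words, that of Cdc20 (chr4:118437344-118437503, minus strand) 1 and 2, and that of Ube2c (chr2:164769769-164769928, plus strand) 1 and 3. Those of Mcm5 (chr8:75109349-75109508, plus strand) and Mcm6 (chr1:128359706-128359865, minus strand) hold 2 and 3 overlapping or single E2F words with 2 CCAAT boxes each and no CHR, and that of Rrm2 (chr12:24708094-24708253, plus strand) holds 1 CCAAT box alone.
Top2a: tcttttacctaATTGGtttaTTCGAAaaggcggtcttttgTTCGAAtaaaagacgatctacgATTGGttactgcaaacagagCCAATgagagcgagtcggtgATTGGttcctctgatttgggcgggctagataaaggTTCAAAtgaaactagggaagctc
Cdc20: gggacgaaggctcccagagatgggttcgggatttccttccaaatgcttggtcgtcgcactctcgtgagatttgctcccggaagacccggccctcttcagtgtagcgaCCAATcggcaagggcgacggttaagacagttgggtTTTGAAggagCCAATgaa
Ube2c: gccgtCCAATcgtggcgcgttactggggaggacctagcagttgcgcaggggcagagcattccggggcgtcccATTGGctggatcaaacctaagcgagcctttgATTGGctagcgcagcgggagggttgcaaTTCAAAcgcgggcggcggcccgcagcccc
Mcm5: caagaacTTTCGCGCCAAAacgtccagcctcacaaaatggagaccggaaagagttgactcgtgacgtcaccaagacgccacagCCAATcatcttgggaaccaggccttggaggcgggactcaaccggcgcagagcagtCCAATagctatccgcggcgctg
Mcm6: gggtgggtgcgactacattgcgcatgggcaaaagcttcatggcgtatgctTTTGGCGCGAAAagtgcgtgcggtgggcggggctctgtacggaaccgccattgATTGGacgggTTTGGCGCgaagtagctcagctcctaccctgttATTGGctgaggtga
Rrm2: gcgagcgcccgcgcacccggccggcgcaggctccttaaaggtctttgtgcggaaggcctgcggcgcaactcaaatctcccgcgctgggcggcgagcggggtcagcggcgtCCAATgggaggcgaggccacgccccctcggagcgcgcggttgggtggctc

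Libraries held 14.2 to 43.7 M reads in genes, of which the members took 1762 to 25276. Defining markers were present in each tissue as labelled: 10 kidney markers summed to 20713 to 36951 counts per M reads in genes (CPM) in kidney and at most 25.2 CPM elsewhere, 10 hepatocyte markers to 81149 CPM or more in liver, and 10 fibroblast markers to 23934 CPM or more in the cultured cells. Old kidney replicate 2 held 4150 CPM of hepatocyte markers, albumin (Alb) alone 2960 CPM, against 217 to 504 CPM in the other old kidneys. Old kidney replicates 2 and 4 also held fewer tubule and glomerulus markers (24383 and 25889 CPM) than replicates 1 and 3 (33262 and 33217 CPM). The tally lines for unaligned and multiply aligned reads were filled in the age libraries and 0 in the DMSO and 3C libraries, so these were processed differently, and levels from both sets are given side by side and not tested against each other.

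Fibroblasts held by far the most message of the members. Their summed level was 983, 1056 and 927 CPM in the 3 DMSO libraries and 790.2, 771 and 694 CPM in the 3C libraries. Kidneys stood at 239 to 260.1 CPM when young and 262 to 398 CPM when old, and livers at 96.2 to 119.6 and 123 to 134 CPM. In the mice of 20 to 21 months, whose libraries were processed differently, kidneys stood at 259.6 to 322 CPM with DMSO and 245 to 271 CPM with 3C. Their livers stood at 93.5 to 116 CPM and 103 to 122 CPM, below the old livers of the age series. Of the 43 members, 39 had their highest group mean in DMSO fibroblasts, and the exceptions were Tyms (young kidney), Mcm6 and Pcna (old kidney) and Kif23 (DMSO kidney). In young liver 25 of the 43 members had a mean under 1 CPM, in young kidney 7 and in fibroblasts none. In bulk RNA, fewer cycling cells and less message per cell cannot be told apart.

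**Figure D1:**
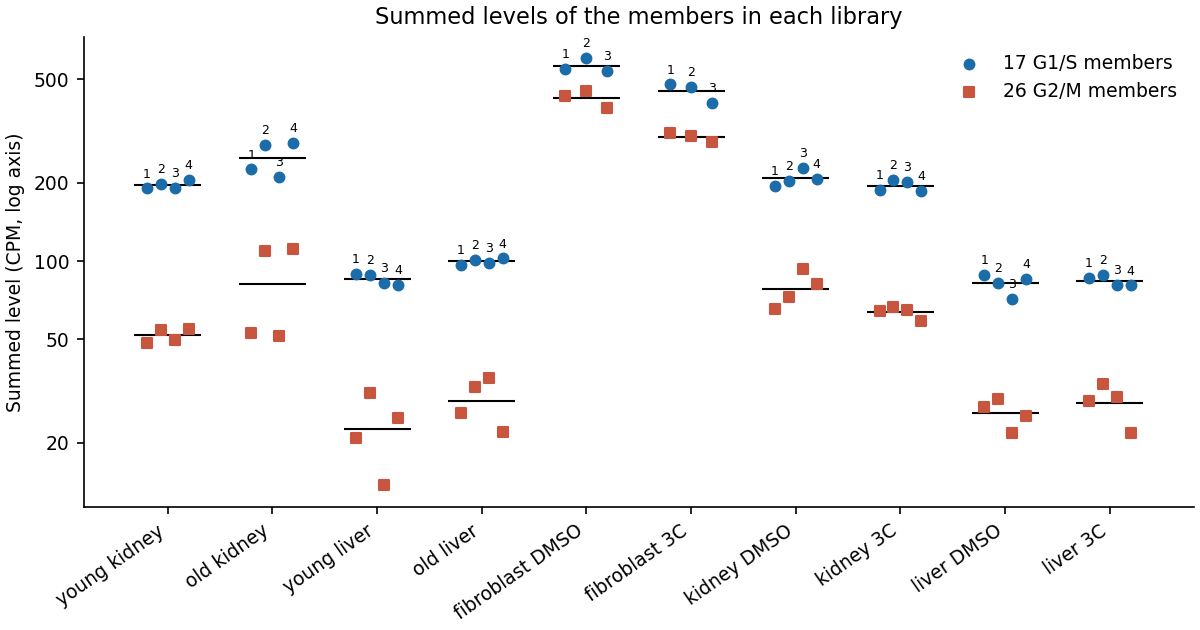
Summed level of the 17 G1/S members (circles) and the 26 G2/M members (squares) in each of 38 RNA-seq libraries, in CPM on a log axis; numbers give the replicate and bars the group mean. The fibroblast libraries sit above all organ libraries, and old kidney replicates 2 and 4 hold 109.7 and 112 CPM of G2/M message against 51.7 and 52.8 CPM in replicates 3 and 1.

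Pcna, the sliding clamp, led the members in every group when levels were divided by exon length, with means of 39.5 CPM per kb in young kidney, 25.0 CPM per kb in young liver and 45.1 CPM per kb in DMSO fibroblasts. Mcm7, a helicase subunit, came next in all 8 organ groups at 3.87 to 9.88 CPM per kb, and in DMSO fibroblasts Rrm2, the small subunit of ribonucleotide reductase, was next at 30.8 CPM per kb. At the other end stood Cdc6, the origin loader, at 0.0909 CPM per kb in young kidney, Cenpf, a kinetochore protein, at 0.0140 CPM per kb in young liver and Ccne2, a cyclin of the G1/S transition, at 0.391 CPM per kb in DMSO fibroblasts. Exons of Ccne2 overlap Ints8 in 52.3% of their bases and the stated counting ignored strand, so its last place is uncertain. The 26 G2/M members summed to 48.6 to 54.6 CPM in young kidney and 13.7 to 31.2 CPM in young liver, and to 389 to 451 CPM in DMSO fibroblasts.

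In fibroblasts, 13 members fell with 3C. All 43 were tested, and the log2 fold change of every one, 3C over DMSO, lay below 0, from -0.96 (Bub1) to -0.09 (E2f1), with a median of -0.49 against 0.01 over all 13449 genes tested, of which 51.1% lay above 0. At an adjusted p under 0.05 (edgeR's quasi-likelihood test, Benjamini-Hochberg), 13 members fell and none rose, where 1.78% of all genes tested fell and 2.43% rose. Of the 13, 10 belong to G2/M and 3 to G1/S. None fell by more than 2-fold, so none passed the study's second threshold, which 0.632% of all genes passed as lower. In 29 of the 43 members all 3C libraries lay below all DMSO libraries, against 9.93% of all genes, and in the other 14 the groups overlapped. Leaving out 1 library at a time left 5, 4 and 2 of the 13 calls without DMSO replicates 1, 2 and 3, and 6, 4 and 8 without 3C replicates 1, 2 and 3.

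Of the replication genes, Rrm2 fell most clearly. It stood at 64.9, 76.3 and 60.0 CPM with DMSO and 44.7, 44.4 and 35.6 CPM with 3C, so the groups did not overlap (log2 fold change -0.74 ± 0.13, SE; adjusted p = 0.0109). Rrm2 sets the supply of deoxynucleotides in S phase. The helicase subunits Mcm5 and Mcm4 fell as well. Mcm5 went from 20.5, 21.6 and 17.1 CPM to 14.7, 12.9 and 11.0 CPM (log2 fold change -0.67 ± 0.15; adjusted p = 0.0334), and Mcm4 from 34.2, 35.2 and 36.1 CPM to 29.2, 25.3 and 23.2 CPM (log2 fold change -0.49; adjusted p = 0.0444). For both the highest 3C library lay below the lowest DMSO library. The other helicase subunits Mcm2, Mcm3, Mcm6 and Mcm7 had log2 fold changes of -0.40, -0.50, -0.32 and -0.19 and did not pass, nor did Pcna at -0.28 (95% interval -0.56 to -0.01).

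Among the spindle genes, Tpx2, which activates Aurora A on microtubules, and Prc1, which bundles the central spindle, fell. Tpx2 was at 37.9, 36.3 and 32.2 CPM with DMSO and at 22.5, 24.01 and 22.5 CPM with 3C (log2 fold change -0.67 ± 0.12; adjusted p = 0.014). Prc1 was at 23.8, 25.9 and 24.7 CPM and 15.5, 16.3 and 15.5 CPM (log2 fold change -0.70 ± 0.12; adjusted p = 0.0123). The libraries of a group lay close together and the groups far apart; of the exonic bases of Prc1, 22.7% overlap Rccd1, and the stated counting ignored strand.

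Of the mitotic kinases and the passenger complex, Aurka, Plk1 and Birc5 fell. Aurka, the Aurora kinase of the spindle poles, went from 18.7, 14.4 and 15.9 CPM to 10.4, 9.85 and 9.44 CPM (adjusted p = 0.0197), and Plk1, the Polo kinase, from 17.1, 20.5 and 19.1 CPM to 13.9, 13.7 and 11.9 CPM (adjusted p = 0.0445). Birc5, the survivin subunit of the chromosomal passenger complex, went from 17.5, 14.7 and 12.4 CPM to 8.78, 9.48 and 9.69 CPM (adjusted p = 0.0376). In none of the 3 genes did the groups overlap. Aurkb, the kinase of that complex, did not pass at a log2 fold change of -0.33 (95% interval -0.72 to 0.07), and Melk did not at -0.48 (-0.91 to -0.05).

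Of the checkpoint and anaphase genes, Bub1, a checkpoint kinase at the kinetochore, fell furthest of all members, from 5.91, 6.06 and 5.14 CPM to 3.32, 3.44 and 2.31 CPM (log2 fold change -0.96 ± 0.22; adjusted p = 0.037). Cdc20, the activator of the anaphase-promoting complex, went from 32.1, 33.5 and 32.8 CPM to 22.4, 23.5 and 20.6 CPM (adjusted p = 0.0169). Cenpa, the histone H3 variant of centromeres, went from 18.6, 20.9 and 17.3 CPM to 11.0, 11.9 and 14.2 CPM (adjusted p = 0.0419). The 3C libraries were below the DMSO libraries in each of these. Top2a, the topoisomerase that untangles sister chromatids, went from 31.8, 37.1 and 31.1 CPM to 20.4, 23.6 and 22.2 CPM (adjusted p = 0.0234), and cyclin B1 (Ccnb1) also fell (log2 fold change -0.65; adjusted p = 0.0457). Mki67, the gene of the Ki-67 antigen by which cycling cells are counted, did not pass at -0.39 (95% interval -0.82 to 0.03).

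E2f1, an activator of G1/S genes, had a log2 fold change of -0.09 (95% interval -0.38 to 0.20) and Foxm1, an activator of G2/M genes, -0.19 (-0.59 to 0.20); neither passed, and both intervals leave out a 2-fold fall. Under the 12 alternatives, which include leaving out each library, the calls of Rrm2 and Tpx2 were kept in each. The call was lost in 1 for Prc1, in 2 for Cdc20, in 3 for Aurka, in 4 for Top2a and in 5 for Mcm5. It was lost in 6 for Birc5, Bub1 and Cenpa, in 7 for Mcm4 and Plk1, and in 8 for Ccnb1. The calls of Bub1, Mcm4, Plk1 and Ccnb1 ended when any one of the 6 libraries was left out.

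**Figure D2:**
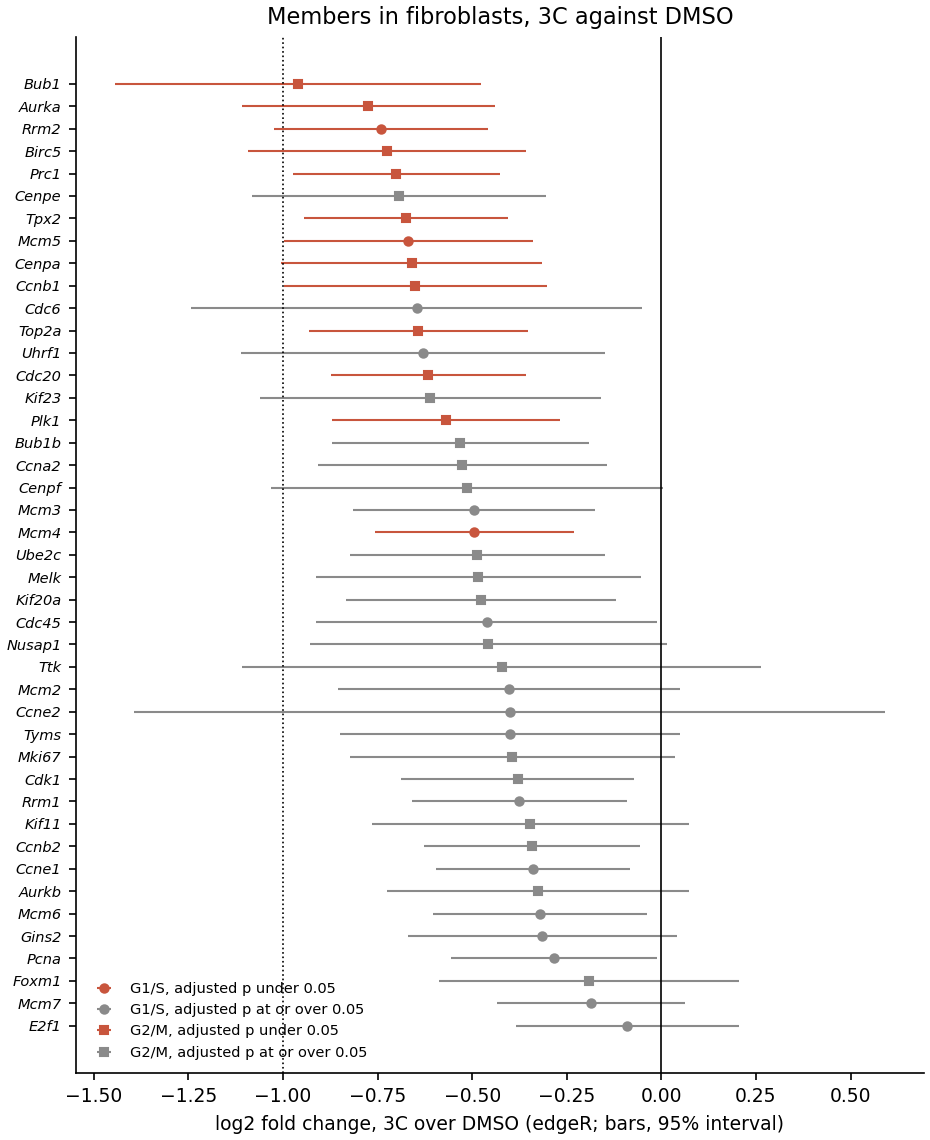
Log2 fold change of the 43 members in fibroblasts, 3C over DMSO, with 95% intervals from edgeR (3 libraries per group); circles mark G1/S and squares G2/M members, red those with an adjusted p under 0.05, and the dotted line a 2-fold fall. All 43 points lie left of 0 and right of -1.

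Of 55 further mitotic genes tested, 3 fell and none rose, with a median log2 fold change of -0.44: Anln, which scaffolds the cleavage furrow, from 30.5 ± 3.11 to 18.4 ± 2.83 CPM (SD, n = 3), Nuf2, a kinetochore subunit, from 11.3 ± 2.10 to 6.64 ± 0.308 CPM, and Cdca8, a passenger subunit, from 15.6 ± 2.19 to 10.6 ± 0.723 CPM. Of 46 further replication genes 2 fell (Chaf1b, a histone chaperone, adjusted p = 0.0464, and the primase subunit Prim2, adjusted p = 0.0481), with a median of -0.31. None of 11 G1 cyclins and their kinases and none of 15 E2F and MuvB factors passed. Among 16 genes that brake the cycle, 2 rose and none fell: Cdkn1c, the inhibitor p57, from 15.8 ± 2.46 to 34.3 ± 10.1 CPM (2.11-fold; adjusted p = 0.0226) and Gadd45a, a stress response gene, from 20.9 ± 3.08 to 38.8 ± 4.55 CPM (1.79-fold; adjusted p = 0.0138). Apart from Cdkn1c, these genes passed the adjusted p but not the 2-fold threshold and were picked out after their values were seen. Of the same 12 alternatives, Cdca8, Chaf1b and Prim2 lost the call in 7, Nuf2 in 6, Cdkn1c in 3, and Anln and Gadd45a in 2. Macrophage markers were present in the cultures: 9 of 9 tested had a log2 fold change below 0, 2 of them passing, and the summed level of 10 was 297 to 383 CPM with DMSO and 128 to 188 CPM with 3C. Adgre1, which defines macrophages, stood at 2.97 to 3.19 CPM and 1.19 to 1.97 CPM. Of 6 endothelial markers 2 rose past both thresholds, with sums of 12.8 to 14.2 CPM with DMSO and 19.2 to 20.8 CPM with 3C, and 1 of 2 hepatocyte markers fell past both, with sums of 3.43 to 5.61 and 2.14 to 2.52 CPM. Their part in the members' values was not tested.

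In the kidney of mice given 3C, none of the 41 members tested passed (Melk and Ttk were below the filter on low counts), and 0% of the 14974 genes tested did, while 5 members and 11.9% of all genes had an unadjusted p under 0.05. DESeq2 called 1 member, Rrm2, where it called 1.46% of 14671 genes. The log2 fold change was below 0 for 30 of 41 members and above 0 for 51.4% of all genes, with a median of -0.16 in the members. Rrm2 had the smallest p: it was at 5.21, 7.31, 6.01 and 6.70 CPM with DMSO and 3.65, 4.17, 4.42 and 3.85 CPM with 3C, without overlap (log2 fold change -0.61, 95% interval -0.94 to -0.28; adjusted p = 0.208). Groups did not overlap for 5 members, all lower with 3C, against 5.35% of all genes.

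Cdk1, the kinase that starts mitosis, was at 1.503, 2.14, 3.06 and 2.74 CPM with DMSO and 0.856, 1.39, 1.36 and 0.974 CPM with 3C (log2 fold change -1.01, -1.63 to -0.38). Aurkb was at 1.45, 1.17, 2.58 and 1.52 CPM and 0.970, 0.823, 0.623 and 0.742 CPM (log2 fold change -1.05, -1.74 to -0.37). In both the groups stood apart, yet adjusted p was 0.23 and 0.251. The helicase subunit Mcm3 was at 8.07, 6.96, 9.43 and 9.27 CPM and 5.02, 7.41, 6.17 and 6.07 CPM, and Mki67 at 4.51, 7.93, 11.95 and 9.62 CPM and 6.33, 5.56, 4.76 and 4.59 CPM, with overlap in each. DMSO replicate 3 was highest for Mki67, Cdk1 and Aurkb, and its summed level of the members was the highest of the group (322 CPM; the others 259.6 to 289 CPM). All 10 fibroblast markers and all 9 macrophage markers tested also had log2 fold changes below 0 in these kidneys, with medians of -0.72 and -0.53 and none passing; the summed level was 541 to 707 CPM of fibroblast and 638 to 722 CPM of macrophage markers with DMSO, and 265 to 472 and 382 to 621 CPM with 3C. Lymphocyte markers moved the same way, with 8 of 9 B and plasma cell markers and 7 of 7 T and NK cell markers below 0, medians of -1.01 and -0.59, and none passing. DMSO replicate 3 was also the highest library of its group in these, with 620 CPM of B and plasma cell markers (the others 301 to 375 CPM) and 64.2 CPM of T and NK cell markers (25.7 to 39.0 CPM); with 3C they summed to 315 to 398 and 19.9 to 28.7 CPM. All 10 endothelial markers were below 0 as well, with a median of -0.18, none passing, and sums of 841 to 929 CPM with DMSO and 595 to 871 CPM with 3C. The part of all these cells in the members' values was not tested.

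In the liver of mice given 3C, none of 31 members tested passed, 0% of the 13042 genes did, and 1 member had an unadjusted p under 0.05 (3.34% of all genes); DESeq2 called none. The other 12 members were below the filter. Here 23 of 31 members lay above 0, as did 49.7% of all genes, with a median log2 fold change of 0.14. Cdc45, which activates the helicase, was at 0.654, 0.970, 0.424 and 1.001 CPM with DMSO and 1.69, 0.883, 1.17 and 1.75 CPM with 3C (log2 fold change 0.87, 95% interval 0.09 to 1.66). Ube2c, the ubiquitin-conjugating enzyme of the anaphase-promoting complex, was at 0.654, 0.377, 0.371 and 0.278 and 0.529, 1.32, 0.587 and 0.640 CPM, and cyclin A2 (Ccna2) at 0.545, 0.970, 0.318 and 0.723 and 1.005, 1.28, 0.704 and 1.05 CPM. The groups overlapped in all 3. Cyclin B2 (Ccnb2) and Uhrf1, which carries DNA methylation across replication, had log2 fold changes of 0.62 (-0.18 to 1.41) and 0.56 (-0.38 to 1.505), with intervals that span 0. Ccnb2 was at 0.5999, 0.539, 0.902 and 0.667 CPM with DMSO and 1.59, 0.687, 0.880 and 0.990 CPM with 3C, and Uhrf1 at 1.09, 0.755, 0.424 and 0.667 and 0.582, 1.91, 0.763 and 0.932 CPM. All 5 adjusted p were 0.9996. T and NK cell markers had log2 fold changes below 0 in 7 of 7 tested, with a median of -0.82, 6 at an unadjusted p under 0.05, 5 without overlap and none passing; they summed to 8.17 to 12.8 CPM with DMSO and 5.47 to 5.98 CPM with 3C. The medians of the fibroblast, macrophage, neutrophil and B and plasma cell markers lay between -0.40 and -0.24, and the part of these cells was not tested.

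Of the 13 members that fell in fibroblasts, all were tested in kidney, where 11 had a log2 fold change below 0, and 10 in liver, where 3 were below and 7 above 0. Whether the 3C effect differed between liver and kidney was tested directly in a joint fit. No member passed (0 of 41; 0% of 15526 genes), and 4 had an unadjusted p under 0.05 against 3.57% of all genes; DESeq2 also called none. The difference, liver minus kidney, was 1.18 ± 0.38 (SE, log2) for Cdc45 and 1.18 ± 0.43 for Ube2c, with adjusted p = 0.9999 for each.

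In the old kidney some replication genes were higher. Of 42 members tested (Ttk was below the filter), 5 rose with age at an adjusted p under 0.05 and none fell, where 8.15% of all 14495 genes tested rose and 3.36% fell: the helicase subunits Mcm3, Mcm5 and Mcm6, the anaphase enzyme Ube2c and the kinase Melk. Ube2c, Mcm3 and Melk also passed the 2-fold threshold, as did 5.68% of all genes. The members' median log2 fold change, old over young, was 0.58 against 0.02 over all genes, and 38 of 42 lay above 0 where 52.2% of all genes did. Groups did not overlap for 8 members, all higher in old kidney, against 13.5% of all genes. The shares of members called were near those of genes in general.

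Mcm3 stood at 5.63, 4.52, 3.79 and 5.42 CPM in young and 7.24, 15.1, 7.91 and 13.7 CPM in old kidney (log2 fold change 1.13 ± 0.25, SE; adjusted p = 0.0177). Mcm5 stood at 5.03, 6.03, 4.42 and 5.59 CPM and 8.47, 11.8, 7.06 and 11.6 CPM (0.84 ± 0.19; adjusted p = 0.0206), and Mcm6 at 19.3, 24.5, 25.8 and 28.7 CPM and 43.2, 41.7, 29.3 and 44.7 CPM (0.65 ± 0.17; adjusted p = 0.0343). All old libraries lay above all young ones in each subunit, and replicates 2 and 4 were highest for Mcm3 and Mcm5. Ube2c was at 3.01, 3.29, 2.53 and 5.37 CPM and 8.08, 7.61, 7.77 and 10.5 CPM (1.21 ± 0.26; adjusted p = 0.0172), with replicate 4 the highest and the other old libraries close together. Melk, a kinase of cycling progenitors, was at 0.383, 0.457, 0.492 and 0.168 CPM and 1.18, 1.28, 0.804 and 1.17 CPM (1.53 ± 0.40; adjusted p = 0.035). The call was lost in 4 of 15 alternatives for Mcm3 and Ube2c, in 5 for Mcm5, in 7 for Mcm6 and in 10 for Melk, which 1 of these did not test.

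For most mitotic genes the old kidneys split. Mki67 was at 4.43, 6.81, 5.76 and 5.65 CPM in young kidney and at 5.32, 16.2, 5.36 and 12.6 CPM in old kidney, and Top2a at 5.90, 5.67, 3.93 and 4.42 and 4.33, 15.1, 4.15 and 12.3 CPM. Replicates 2 and 4 stood above every young library, while replicates 1 and 3 lay within the young range. Cdk1 had the same shape, 2.62, 2.06, 1.69 and 2.80 CPM against 2.02, 4.67, 2.50 and 5.19 CPM. Replicates 2 and 4 were both above replicates 1 and 3 in 35 of the 43 members and both above all 4 young libraries in 37, whereas replicates 1 and 3 were both above all young libraries in 8. How many of all genes were ordered this way was not counted. Replicates 2 and 4 were singled out by the members' own summed level, so these counts do not set the members apart from other genes. In an alternative added after the data were seen, replicates 2 and 4 were left out together because they had the highest summed level of the members. The members' median log2 fold change was then 0.00, and 2 members passed as higher (Ube2c and Mcm7) and 2 as lower (Cenpf and Kif11), against 12.4% and 15.5% of 14620 genes. As these replicates were chosen for high levels of the members, the lower median and the lower calls are set in part by the choice, and nothing is read from them. Ube2c alone passed with and without these replicates, and the loss of the other calls is set in part by the same choice. Leaving out single libraries gave 0 to 6 calls: none without young replicate 2, young replicate 3 or old replicate 4, 1 without young replicate 1 and 3 without old replicate 1.

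**Figure D3:**
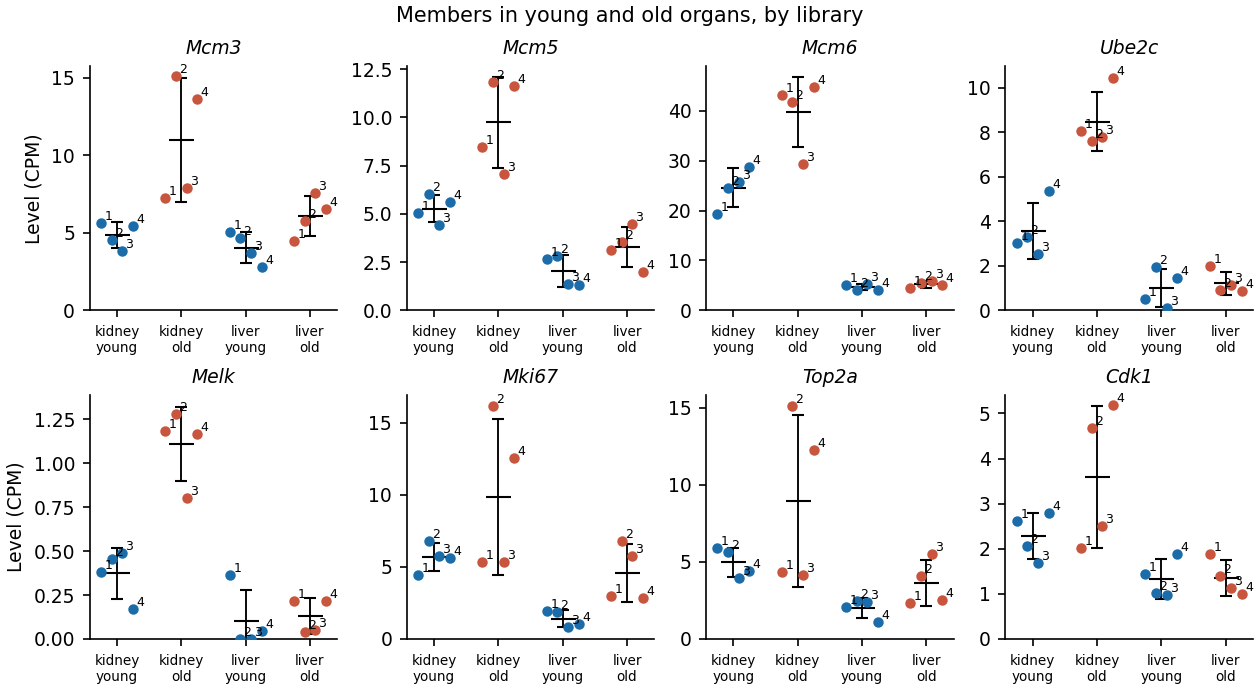
Level in CPM of 8 members in each library of young (blue) and old (red) kidney and liver, with the replicate number, the mean and SD (n = 4). For Mcm3, Mcm5, Mcm6, Ube2c and Melk every old kidney lies above every young kidney; for Mki67, Top2a and Cdk1 old kidney replicates 2 and 4 lie above, and replicates 1 and 3 within the young range.

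Markers of immune cells and some of fibroblasts rose in old kidney beside these genes. All 9 macrophage markers tested, 7 of 9 B and plasma cell markers and 6 of 7 T and NK cell markers rose past both thresholds, as did 3 of 4 neutrophil and 3 of 10 fibroblast markers; none of 10 endothelial markers did. The summed macrophage level was 160.4 to 186 CPM in young and 737, 1004, 721 and 1653 CPM in old kidney, replicate 4 being the highest. Neutrophil markers summed to 0.874 to 3.30 CPM in young and 15.9, 10.8, 6.88 and 32.5 CPM in old kidney, B and plasma cell markers to 171 to 218 and 608 to 794 CPM, and T and NK cell markers to 6.22 to 8.25 and 25.8 to 44.1 CPM. Fibroblast markers summed to 743 and 859 CPM in old replicates 2 and 4, against 345 and 425 CPM in replicates 1 and 3 and 377 to 455 CPM in young kidney. The part of these cells in the members' values was not tested.

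Of the wider pathway in old kidney, 44 further replication genes tested gave 1 that rose and 1 that fell, with a median log2 fold change of 0.29, and 48 further mitotic genes gave 2 that rose and 3 that fell, with a median of 0.15. Past both thresholds were Pole, the leading-strand polymerase (1.01 ± 0.485 to 2.87 ± 0.872 CPM, SD, n = 4; adjusted p = 0.0499), Espl1, the separase that cuts cohesin (0.540 ± 0.206 to 1.70 ± 0.815 CPM; adjusted p = 0.0425), and, lower, Ect2, an exchange factor of cytokinesis (13.0 ± 4.06 to 5.72 ± 2.47 CPM; adjusted p = 0.0266). Of 15 alternatives, Pole and Espl1 each lost the call in 10 and Ect2 in 4. Leaving out any of young replicates 1, 2 and 3 or old replicates 3 and 4 ended the call of Pole, and leaving out any young replicate or old replicates 1, 2 or 4 that of Espl1. At the adjusted p alone, Cks1b also rose, and Spc25 and Ncapd3 fell, genes picked out after their values were seen. Of 15 brakes tested, 3 rose and none fell (Cdkn1a, and at the adjusted p alone Cdkn1c and Btg2). Cdkn1a, the p53 target p21 that halts the cycle, went from 18.7, 21.2, 22.7 and 22.1 CPM to 39.4, 45.6, 45.8 and 57.9 CPM (2.17-fold; adjusted p = 0.00126), and every old library, not only replicates 2 and 4, was above the young ones. Its call was kept in all 15 alternatives.

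In old liver Mki67 alone of the members passed. The members' median level was 1.15 CPM, 18 of 43 had a mean under 1 CPM, and Pcna led at 41.7, 39.7, 30.1 and 38.5 CPM. Of 43 members 30 passed the filter on low counts, and 1 of these, Mki67, rose with age past both thresholds, where 1.91% of 12537 genes rose at an adjusted p under 0.05, 0.558% fell and 1.69% rose past both. It was at 1.95, 1.84, 0.821 and 1.04 CPM in young and 2.97, 6.82, 5.75 and 2.83 CPM in old liver, without overlap, as were 6.72% of all genes (log2 fold change 1.63 ± 0.36; adjusted p = 0.0435), and lost the call in 7 of 14 alternatives, 6 of them leaving out a single library (any young library, or old replicate 2 or 3). Top2a was at 2.08, 2.46, 2.42 and 1.08 and 2.36, 4.09, 5.50 and 2.53 CPM, Mcm3 at 5.03, 4.65, 3.67 and 2.79 and 4.46, 5.74, 7.54 and 6.52 CPM, and the midzone motor Kif23 at 0.589, 0.922, 0.0966 and 0.541 and 1.53, 1.76, 1.49 and 0.901 CPM, with adjusted p = 0.306, 0.306 and 0.249. Ages overlapped in each of these, as in Mcm4, at 2.63, 3.47, 2.03 and 1.35 and 2.62, 3.49, 3.87 and 4.46 CPM (adjusted p = 0.415). The median over the members was 0.22, against 0.00 over all genes. Old liver replicates 2 and 3 were highest in Mki67 and Top2a and also in macrophage markers (1547 and 1662 CPM; 906 and 1137 CPM in the other old livers, 508 to 694 CPM in young). In this comparison 2 of 10 macrophage markers, 5 of 5 neutrophil markers and 4 of 7 B and plasma cell markers tested rose past both thresholds. Neutrophil markers summed to 80.6, 23.2, 155 and 14.8 CPM in old livers 1 to 4 and 2.85 to 4.91 CPM in young, and B and plasma cell markers to 238 to 422 and 202 to 268 CPM. The part of these cells in the members' values was not tested.

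Among the brakes of the cycle in old liver, 2 of 15 tested rose and none fell. Cdkn2a, which encodes p16 and p19 and marks senescent cells, had 1 read in all 4 young livers together and 34 to 111 reads per library in old liver (mean 3.03 CPM, adjusted p = 0.00153). It was not particular to liver: kidney had 2 reads in all 4 young libraries together and 7 to 74 per old library. Fibroblasts held far more, at 475 to 588 CPM with DMSO and 461 to 585 CPM with 3C. In liver Gadd45a went from 1.21 ± 0.506 to 3.81 ± 0.681 CPM (SD, n = 4, adjusted p = 0.0435), and E2f2, an activator of S phase, from 0.405 ± 0.176 to 1.70 ± 0.701 CPM (adjusted p = 0.0474). Gadd45a and E2f2 each lost the call in 8 of 14 alternatives: with the replicate block, and without any one young library or old replicate 1, 2 or 3. None of 42 further replication genes and none of 34 further mitotic genes passed in edgeR. A direct test of whether the age effect differed between the organs gave no member of 42 (1.72% of 15036 genes passed), with 2 at an unadjusted p under 0.05 (14% of all genes) and none in DESeq2. The difference, liver minus kidney, was -1.01 ± 0.37 (SE, log2) for Aurka (adjusted p = 0.195) and -0.54 ± 0.23 for Mcm7 (adjusted p = 0.287).

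The promoters of the members were open in every organ and at both ages. A peak within 1 kb of a start site was called for 42 or 43 of 43 members in each of the 12 ATAC-seq libraries, where 59.0% to 65.3% of 24431 genes had one. The single gaps were Aurkb in 3 libraries and Top2a, Ube2c and Bub1 in 1 each. With nearly every member at a peak in every library, this count leaves no room for a difference between ages. Counting only stronger peaks (−log10 q from 5 upward), the number was 40 to 42 in young and 42 to 43 in old kidney, and 35 to 39 in young and 33 to 40 in old liver (n = 3; exact two-sided permutation tests, p = 0.3 and 0.9, where 0.1 is the smallest p of 3 against 3). Cenpf, with the lowest level per kb in young liver, had a peak in all 6 liver libraries.

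Promoter peaks of many members were higher in the old kidney libraries. In 19 of 42 members with a peak in all 6 kidney libraries, the fold enrichment of the highest peak was above every young library in every old library, against 16% of the 14000 genes with such peaks, and in none was it below, against 9.15%. In liver 2 of 39 were above (7.94% of 12573 genes) and 2 below (6.16%). The 19 were Mcm2, Mcm3, Mcm4, Mcm6, Cdc6, Cdc45, Gins2, Uhrf1, Ccne2 and E2f1 of the G1/S members, and Ccnb2, Bub1, Ttk, Cdc20, Ube2c, Cenpe, Cenpf, Kif11 and Kif23 of the G2/M members.

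Mcm3 had a fold enrichment of 10.9, 10.7 and 5.93 in young and 17.95, 14.7 and 15.8 in old kidney, and Ube2c of 5.59, 6.07 and 4.72 and 8.37, 8.50 and 11.1. Cdc6, the origin loader, had 5.57, 5.94 and 4.77 and 9.28, 10.1 and 9.94, and Cenpf 8.55, 10.6 and 9.48 and 13.1, 14.1 and 14.0. Old libraries stood above young ones in all 4. Of the members that rose in old kidney RNA, Mcm3, Mcm6 and Ube2c are among the 19, while Mcm5 (9.92, 10.1 and 10.4 against 7.94, 8.59 and 11.8) and Melk (4.81, 4.93 and 4.10 against 4.19, 3.37 and 4.42) overlapped between ages. The old kidney libraries held fewer peaks in all (93072 to 108970 against 115836 to 128395), and the median enrichment over all genes with a promoter peak was 6.43 to 7.33 in old and 5.83 to 6.76 in young kidney, beside 8.50 to 10.8 and 6.58 to 8.04 over the members. Fold enrichment was not scaled between libraries, and its differences were not tested.

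**Figure D4:**
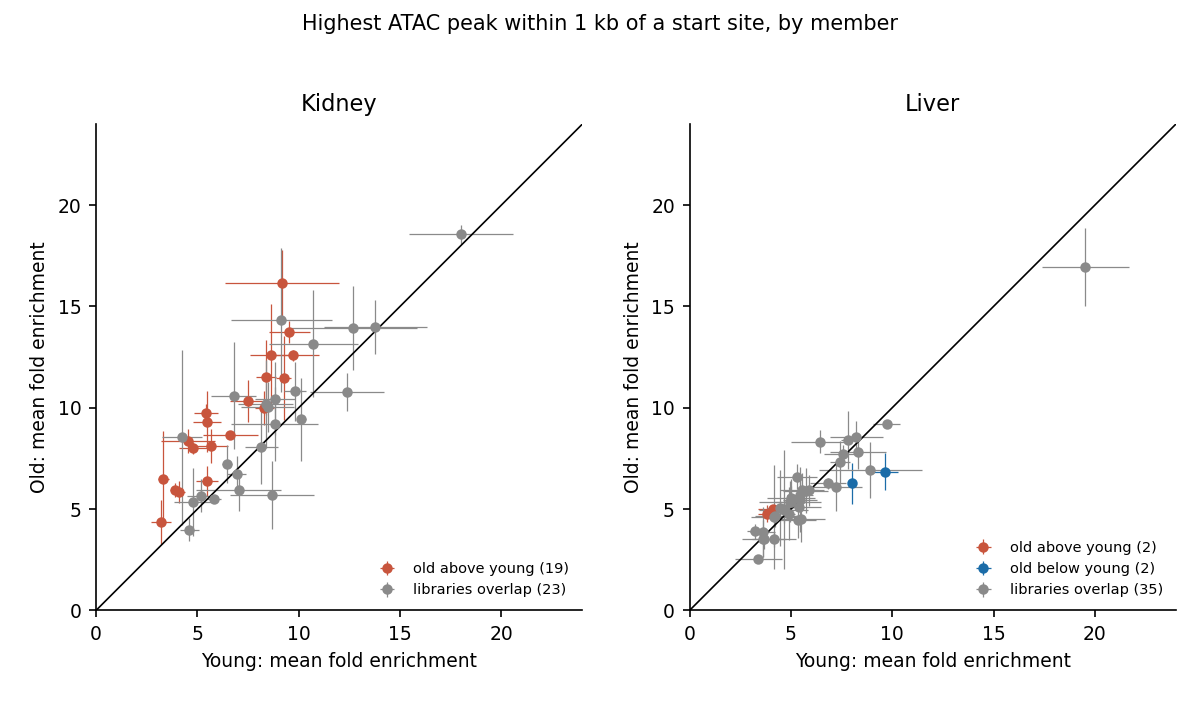
Mean fold enrichment over the local background of the highest ATAC-seq peak within 1 kb of a start site, young on the x axis and old on the y axis, with SD (n = 3), for members with a peak in all 6 libraries of an organ (42 in kidney, 39 in liver). In kidney 19 members with old libraries above all young ones lie over the diagonal; in liver 2 lie above and 2 below.

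Between the organs, several replication genes were higher in kidney than in liver, but in young and old mice the members were called higher or lower no more often than genes in general. The calls depend on scaling: the TMM size factors ran from 0.607 to 1.495 in the young libraries, and the 10 hepatocyte markers alone took 146330 to 184215 CPM of young liver. With library totals in place of size factors the median of all genes moved from 0.08 to 1.16 (log2, kidney over liver) in young mice, from 0.03 to 1.12 in old mice and from 0.07 to 1.06 with DMSO. Relative to the median gene, 9 of 38 members tested were higher and 4 lower in young kidney than in young liver (35.1% and 30.2% of 14057 genes), 10 and 2 of 41 in old mice (30.1% and 24.7% of 14578 genes), and 19 and 4 of 40 with DMSO (38.7% and 33.2% of 14981 genes). With library totals the counts were 30, 32 and 37 higher (74.3%, 68.1% and 76.1% of all genes) and none lower (11.2%, 9.15% and 11.4%). Past both thresholds the counts were 6 higher and 2 lower in young mice (25.7% and 16.9% of all genes), 8 and 0 in old mice (24.6% and 16.1%), and 14 and 2 with DMSO (26.6% and 15.7%). With length and GC trends removed, the last of these became 7 and 2 (23.4% and 19.5%).

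Mcm6 was at 5.03, 4.08, 5.17 and 4.01 CPM in young liver and 19.3, 24.5, 25.8 and 28.7 CPM in young kidney (log2 fold change 1.34 ± 0.19, SE; adjusted p = 5.83e-05), and Mcm2 at 2.76, 2.41, 1.497 and 2.07 and 16.6, 13.5, 13.8 and 15.8 CPM (1.69 ± 0.21; adjusted p = 2.02e-05). Both passed in all 3 organ comparisons, as did Gins2, a subunit of the active helicase. In young mice the others higher in kidney were, with their log2 fold changes, Gins2 (2.09), Cenpf (1.81), Plk1 (1.55), Kif23 (1.34), Mki67 (0.94), Mcm4 (0.82) and Tyms (0.68). Under 15 alternatives, Plk1 lost its call in 8, 1 of which did not test it, and Kif23 in 6. Leaving out any of young kidney replicates 1, 2 and 3 or young liver replicates 1, 3 and 4 ended both. In old mice they were Melk (1.95), Cenpe (1.95), Cdc20 (1.73), Ube2c (1.66), Gins2 (1.62), Ccnb2 (1.47), Uhrf1 (0.997) and Kif20a (0.97), beside Mcm6 (1.85) and Mcm2 (1.42). Exons of Kif20a overlap Brd8 and Cdc23 in 66.4% of their bases, and the stated counting ignored strand. Of 16 alternatives in old mice, Kif20a lost the call in 9, Uhrf1 in 7, Ccnb2 in 6, and Melk and Cenpe in 2, 1 of which did not test them. With DMSO the log2 fold change was 2.39 for Mcm6, 1.30 for Mcm2, 2.09 for Uhrf1, 1.44 for Foxm1, 1.29 for Ccna2 and 1.19 for Mcm5. With DMSO the widest gaps were in Ube2c (0.654, 0.377, 0.371 and 0.278 CPM in liver, 6.81, 5.86, 9.85 and 8.10 CPM in kidney) and Kif23 (1.25, 0.377, 0.318 and 1.001 and 13.2, 7.998, 9.97 and 12.005 CPM), with log2 fold changes of 3.18 ± 0.30 and 2.90 ± 0.35. Kif23 had 3.06, 3.75, 3.65 and 1.17 CPM in young and 2.12, 3.76, 1.47 and 5.17 CPM in old kidney of the age series, all below the DMSO kidneys, a difference that cannot be told apart from the other processing of that series.

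Lower in kidney relative to the median gene were Aurka and Cenpa in all 3 comparisons, Mcm3 and Pcna in young mice, and Pcna and Birc5 with DMSO, and for these the direction or the call hung on the scaling. The calls of Aurka and Cenpa in old mice were lost in 9 of 16 alternatives each, of which 6 and 5 left out 1 library: old kidney replicates 1, 3 and 4 and old liver replicate 4 for both, old kidney replicate 2 and old liver replicate 2 for Aurka, and old liver replicate 1 for Cenpa. Birc5 with DMSO lost the call in 5 of 15. Library totals raise all genes by about the same amount, so a member slightly lower with size factors turns by construction, which says nothing of that gene. Pcna had 32.5, 27.7, 30.7 and 35.1 CPM in young liver and 52.7, 49.6, 47.8 and 48.8 CPM in young kidney; its log2 fold change was -0.44 with size factors and 0.66 with library totals. The same shift took Mcm3 in young mice from -0.80 to 0.26, and in old mice Aurka from -0.72 to 0.37 and Cenpa from -0.81 to 0.34. Without old kidney replicates 2 and 4, 5 of the 12 calls in old mice were kept: Mcm6, Mcm2, Gins2, Ube2c and Cdc20, all higher in kidney. As these replicates were left out for their high levels of the members, which calls were kept or lost is set in part by that choice.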

How the data were processed

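RNA-seq of 38 libraries in 10 groups and ATAC-seq of 12 libraries in 4 groups were used. The deposited RNA values were read counts per gene: the authors removed adapters and poor bases (Trimmomatic 0.39), mapped what was left to the mm10 genome (HISAT2 2.2.1) and tallied reads per gene (HTSeq 0.12.4), with versions as in the submitters' processing notes; the methods, which describe the age libraries, say that strand was ignored. Tallies of reads outside genes or ambiguous between genes took 8.05% to 21.3% of the reads and were left out of library totals. For ATAC-seq the authors aligned with Bowtie2 2.3.5.1 and called peaks per library with MACS2, and their deposited lists hold each peak's fold enrichment, a ratio over the local background, and the −log10 of the p-value and of the q-value.

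The members and gene lists were chosen with earlier results of these data known. Of 24984 genes counted, the 12537 to 15526 kept in each comparison by a minimum count of 10 were fitted with edgeR 4.0.16 (R 4.3.3): libraries were scaled by TMM, and a quasi-likelihood test was run on the groups compared, with Benjamini-Hochberg adjustment over all genes tested. A gene passed at an adjusted p under 0.05, and past both thresholds where its fold also lay above 2 or below 0.5. Levels are counts scaled to the library total (CPM), before size factors. Intervals are 95% intervals of the fit. The script was tested on simulated data.

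Values in every library are given for members that passed, at most the 12 with the smallest p, and where under 5 passed for the 5 with the smallest p; between the organs, where many passed, log2 fold changes stand in for most of them; of each pathway list, genes past both thresholds were named. Peaks were assigned to start sites within 1 kb using RefSeq GRCm38.p6, in which 24431 genes (97.79%) were matched, with Python 3.11.15. Exons of 12 members overlap other genes.

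Alternatives were DESeq2 1.42.0, other size factors and filters, removal of a length and GC trend, leaving out each library, and a replicate block. Same-numbered young kidney and liver libraries deviated together (r from 0.156 to 0.579, over 0.1 in 4 of 4 pairs), so that there the numbers pair the samples. The values given are from the fit without the block, and the block kept the same 13 calls. With DMSO each liver library went best with the kidney library of its own number (4 of 4, r from 0.0172 to 0.167), and the block kept 20 of 23 calls. No pair of libraries of a group agreed within sampling noise (54 pairs, chi-square per degree of freedom of at least 8.12). One of the genes counted in the wider lists is not reported here by name.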

Additional observations from a re-analysis of the deposited data

Results flagged for a closer look

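Of 48 groups of values tested for a library far from the others, 2 stood out, where about 1 in 20, or 2.4, would by chance. In old kidney, Ube2c stood at 10.5 CPM in replicate 4 and at 7.61 to 8.08 CPM in the other 3 libraries. In the liver of mice given 3C, Ube2c stood at 1.32 CPM in replicate 2 and at 0.529 to 0.640 CPM in the others. Their causes were not tested.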

How the results depend on the processing

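Groups held 3 or 4 libraries, and in old liver 18 of 43 members had a mean under 1 CPM. Leaving out 1 library at a time gave 0 to 6 members at the adjusted p and 0 to 4 past both thresholds in old kidney, 0 to 1 by either count in old liver, 2 to 8 in fibroblasts with 3C, 11 to 17 and 6 to 14 between young kidney and liver, 7 to 13 by either count between the old organs, and 17 to 23 and 13 to 19 with DMSO; the difference in members with a promoter peak, where nearly all had one, ran from -0.333 to 0.333. With a replicate block 8 members passed in fibroblasts, 0 in old liver by either count and 4 in old kidney. In none of these comparisons did the numbers pair the samples, and no block changed the number of calls by over 1.5 times elsewhere. At the adjusted p alone, 5 members passed in old kidney, 13 in fibroblasts and 13 between young organs. DESeq2 called 1 member in kidney with 3C. With length and GC trends removed, 9 members passed both thresholds between the DMSO organs, against 16. Alternatives chosen after seeing the data were library totals without size factors, which gave 30 members at the adjusted p and 24 past both thresholds in young, 32 and 30 in old and 37 and 31 in DMSO mice, and turned Mcm3 (0.26) and Pcna (0.66) in young and Aurka (0.37) and Cenpa (0.34) in old mice, and leaving out old kidney replicates 2 and 4 together, which gave 5 and 5 between the old organs. The scale itself moved the median gene in the former; other causes were not tested. Old minus young members with a promoter peak became 1.33 in kidney and 0.667 in liver at a −log10 q of at least 5, and -1.0 and 0.667 within 500 bp.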
